A study of Mus musculus with 4 samples.

Results

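The NDRG (N-myc downstream regulated gene) family was followed through 4 single-cell RNA libraries of mouse embryoid bodies. Its 4 genes, Ndrg1, Ndrg2, Ndrg3 and Ndrg4, were matched by symbol among the 32285 genes that each library lists, and each symbol belonged to the list of every library. The embryoid bodies, aggregates in which embryonic stem cells differentiate, were made from R1 cells, a mouse embryonic stem cell line, with no further allele or agent named. The normoxic library of day 8 had 8 days of normoxia, and the hypoxic library of day 8 had 7.33 days of normoxia and then 16 h of hypoxia. The normoxic library of day 10 had 10 days of normoxia, and the hypoxic library of day 10 had 8 days of normoxia and then 48 h of hypoxia. The oxygen level of the hypoxic cultures was not given in the labels. Each condition had 1 library, so differences between conditions have no replicate check and no p-value is given. All intervals are at 95% and cover counting error only. The family was selected on the ratios of hypoxia to normoxia that its genes had shown in these same libraries, so their differences are descriptions and support nothing beyond themselves.

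NDRG proteins share an alpha/beta hydrolase fold but are not known to work as hydrolases, and they have been tied to growth arrest, differentiation and stress. NDRG1 is a widely used hypoxia marker whose gene is induced through the hypoxia-inducible factors (HIF) and repressed by MYC proteins, and its protein is phosphorylated by SGK1 and GSK3. NDRG2 is best known from astrocytes, muscle and heart, and its gene is also repressed by MYC. NDRG3 protein is marked for destruction by the oxygen sensor EGLN1, binds lactate and then promotes ERK signalling, a control that acts on the protein. NDRG4 is mostly found in brain and heart. The libraries measure RNA and say nothing of protein.

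The genes lie on 4 chromosomes (mm10, GENCODE M21). Ndrg1 (ENSMUSG00000005125) spans chr15:66929318-66969640 on the minus strand and overlaps 2 genes of the opposite strand, Gm17035 by 1501 bases and Gm2895 by 318 bases. These gave 0 to 8 and 14 to 31 UMIs per library, few beside Ndrg1, though no source used here says whether the counting used strand. Ndrg2 (ENSMUSG00000004558) spans chr14:51905271-51914158 and Ndrg3 (ENSMUSG00000027634) chr2:156927345-156992056, both on the minus strand. Ndrg3 holds the small RNA gene Gm27653. Ndrg4 (ENSMUSG00000036564) spans chr8:95676980-95715119 on the plus strand. The stretch of 60 coding bases in which the 4 genes are most alike is printed here. The libraries were made for 3' ends, and how often their reads fall in this stretch was not tested. Capitals mark the positions that are not identical in all 4, and 46 of 60 positions were identical.
Ndrg1: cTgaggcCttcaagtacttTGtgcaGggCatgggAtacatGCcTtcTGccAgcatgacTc
Ndrg2: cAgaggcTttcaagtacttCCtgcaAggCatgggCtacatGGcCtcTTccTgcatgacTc
Ndrg3: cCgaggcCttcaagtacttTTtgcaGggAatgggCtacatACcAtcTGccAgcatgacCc
Ndrg4: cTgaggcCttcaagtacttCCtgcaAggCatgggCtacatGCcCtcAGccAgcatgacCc

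Over the whole coding sequences, which are 1185, 1074, 1128 and 1020 bases long in the order Ndrg1 to Ndrg4, identity between pairs ran from 63.2% (Ndrg1 and Ndrg2) to 69.1% (Ndrg1 and Ndrg4). Of the stretches of 31 bases in their transcripts, Ndrg1 and Ndrg3 shared 0 with another member, and Ndrg2 and Ndrg4 shared 3 with each other. Ndrg3 shared 3.79% of such stretches with other genes, Ndrg1 0.381%, Ndrg2 0.145% and Ndrg4 0%. Stretches of that length thus tell the members apart, except for those 3.

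Upstream sequence is shown for Ndrg2 and Ndrg3, the first of which was several times higher in hypoxia at day 8 while the second was not. The core of the HIF binding site was searched as ACGTG or GCGTG on both strands, in the RefSeq promoter table (GRCm38.p6), whose windows hold 300 bases around a gene's start. It was present in 43.8% of all 32851 windows, so a match is common. One Ndrg2 start has 2 matches (capitals) in the 163 bases that lie outside its exons, at chr14:51913576-51913738 on the minus strand. The 250 bases upstream of one Ndrg3 start, at chr2:156992112-156992361 on the minus strand, hold 0 matches, while a second Ndrg3 window has 2. The whole window of the Ndrg2 start shown has 3 matches. Of the other Ndrg2 windows, one has 0 matches and one has 1. The latter overlaps the window of the start shown, so a match can be counted in both. Windows with and without a match thus occur for both genes. The same holds for Ndrg4, which was not 2-fold higher in hypoxia and whose windows have 1, 4, 0 and 0 matches. No window of Ndrg1 was available, so a link between matches and the ratios was not tested.
Ndrg2: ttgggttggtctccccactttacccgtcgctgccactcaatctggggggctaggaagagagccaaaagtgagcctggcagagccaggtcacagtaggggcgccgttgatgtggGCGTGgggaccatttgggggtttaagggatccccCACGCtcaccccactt
Ndrg3: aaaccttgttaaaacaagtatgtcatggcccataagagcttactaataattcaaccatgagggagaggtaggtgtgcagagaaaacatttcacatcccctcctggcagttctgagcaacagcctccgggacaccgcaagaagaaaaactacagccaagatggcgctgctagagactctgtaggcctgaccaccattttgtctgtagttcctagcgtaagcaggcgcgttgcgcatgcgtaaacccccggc

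The kept cells numbered 3163 (normoxia) and 3344 (hypoxia) at day 8, and 2670 and 4615 at day 10. Libraries held 62221875 to 84709052 unique molecular identifiers (UMIs, each 1 counted RNA molecule). The hypoxic library of day 10 stood apart, with a median of 12800 UMIs per cell against 18838.5 to 23034 elsewhere and 0.562% mitochondrial UMIs against 1.85% to 3.95%. In that library the median gene was lower than in normoxia by 0.46 on the log2 scale. Pairs of libraries shared 0 to 5 cell barcodes. By markers, 84.9% to 93.7% of cells were mesenchymal-like. No cluster was named pluripotent at the clustering resolution of 1 used throughout, whereas at a resolution of 2 a pluripotent-like cluster of 177 cells was, led by Utf1 and with Pou5f1 among its leading genes (52 and 58 cells at day 8, 19 and 48 at day 10, normoxia and hypoxia).

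Ndrg1 was high in both hypoxic libraries. At day 8 it gave 2583 UMIs in normoxia and 16983 in hypoxia, or 30.5 and 218 CPM (a gene's UMIs scaled by the total of its library to a common size), and 1873 and 11923 UMIs at day 10, or 30.1 and 155 CPM. The normoxic libraries differed by less than counting error (0.987-fold, 0.930 to 1.05), and both hypoxic ones lay far above them. After 16 h of hypoxia the plain ratio was 7.14-fold (6.85 to 7.44), and after 48 h it was 5.16-fold (4.91 to 5.42). As a log2 ratio of CPM + 1, Ndrg1 was at 2.80 at day 8, rank 10 from the highest among the 10599 genes whose mean over libraries reached 5 CPM, and at 2.33 at day 10 (rank 37). Scaling of the libraries with TMM in place of the total put these at 3.01 and 2.82.

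Ndrg2 was high in hypoxia at day 8 but not at day 10, when the normoxic library had itself become higher. It gave 2264 UMIs (26.7 CPM) in normoxia and 12041 (154 CPM) in hypoxia at day 8, and 4995 (80.3 CPM) and 6243 (81.3 CPM) at day 10. The lowest library was thus the normoxic one of day 8, the highest its hypoxic partner, and the day 10 libraries lay between and overlapped in their intervals. The ratio after 16 h of hypoxia was 5.77-fold (5.52 to 6.04), a log2 ratio of 2.49 (rank 17). After 48 h it was 1.01-fold (0.976 to 1.05), a log2 ratio of 0.018. With age, from day 8 to day 10 in normoxia, it was 3.0-fold (2.86 to 3.16), a log2 ratio of 1.55 (rank 122). The near-zero value at day 10 depends on scaling: relative to the median gene Ndrg2 was 0.48 higher on the log2 scale, and with TMM scaling its ratio was 0.51, still under 2-fold. The hypoxia comparisons of day 8 and the age comparison share the normoxic library of day 8, as those of day 10 and age share that of day 10.

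**Figure D1:**
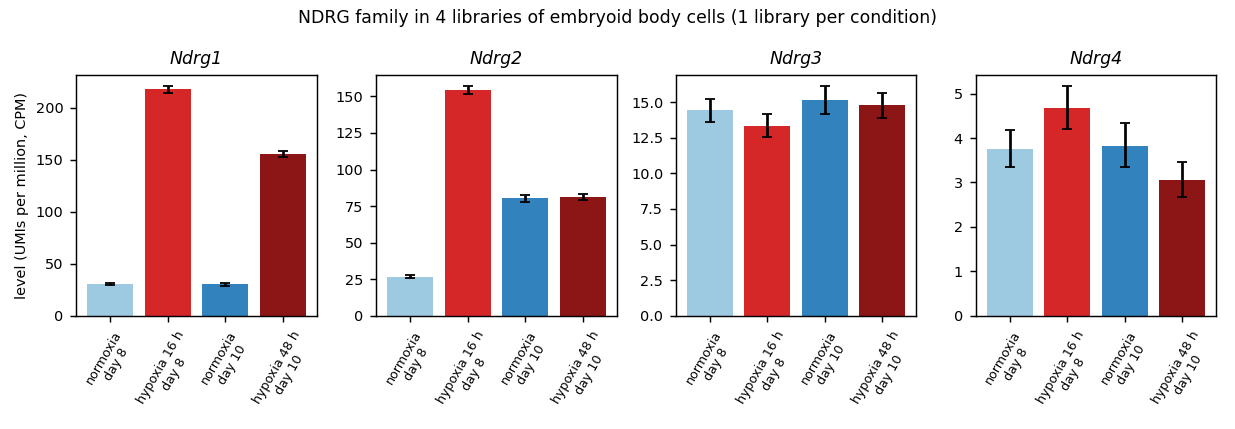
Level in CPM of each NDRG gene in the 4 libraries, each panel with its own axis from 0. Bars are single libraries and error bars exact Poisson intervals; Ndrg1 was at 218 and 155 CPM in hypoxia against 30.5 and 30.1 in normoxia, while Ndrg3 stayed between 13.3 and 15.1.

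Ndrg3 showed little difference between libraries. At day 8 its level was 14.4 CPM (1221 UMIs) in normoxia and 13.3 CPM (1041) in hypoxia. At day 10 it was 15.1 CPM (941) in normoxia and 14.8 CPM (1133) in hypoxia. The intervals of both hypoxia ratios, 0.851 to 1.01 at day 8 and 0.894 to 1.06 at day 10, hold 1, and so does that of age (0.963 to 1.14). In mesenchymal-like cells alone the log2 ratio with age was 0.28, with an interval of 0.16 to 0.43 that leaves out 0. Relative to the median gene Ndrg3 was 0.43 higher on the log2 scale in the hypoxic library of day 10, and with TMM scaling its ratio was 0.44 there.

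Ndrg4 was scarce. At day 8 its level was 3.74 CPM (317 UMIs) in normoxia and 4.67 CPM (364) in hypoxia. At day 10 it was 3.83 CPM (238) in normoxia and 3.05 CPM (234) in hypoxia. It was the only member under the mean of 5 CPM used for counts of genes, so 3 of 4 members entered those counts. The hypoxic library was the higher at day 8, at 1.25-fold (1.07 to 1.45), and the lower at day 10, at 0.797-fold (0.662 to 0.958). The day 10 direction does not hold under other scalings, since the log2 ratio of -0.25 became 0.14 with TMM and 0.19 with DESeq2 size factors.

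Of the 3 members that entered the counts, Ndrg1 and Ndrg2 were at least 2-fold higher in hypoxia at day 8, where 1.59% of all genes were, and Ndrg1 at day 10, where 4.39% were. Ndrg2 was at least 2-fold higher with age, as were 3.32% of genes. None of the 3 was at least 2-fold lower in any comparison, where 1.75%, 26.9% and 2.49% of genes were, in the order hypoxia at day 8, hypoxia at day 10 and age.

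**Figure D2:**
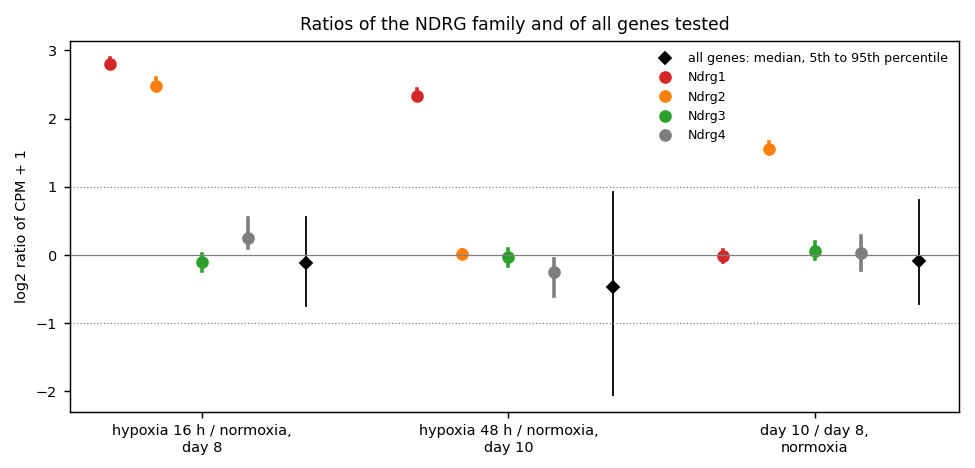
Log2 ratio of CPM + 1 for each member (circles; lines are intervals of the plain ratio) and for all 10599 genes (diamond, median; line, 5th to 95th percentile). Dotted lines mark 2-fold; Ndrg1 lies above it in both hypoxia comparisons and Ndrg2 in hypoxia at day 8 and with age.

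The hypoxic difference in Ndrg1 and Ndrg2 was spread over many cells. Each cell was thinned to 5000 UMIs, which left out 70 and 166 shallower cells at day 8 and 162 and 619 at day 10 (normoxia and hypoxia). At that depth Ndrg1 was seen in 13.8% of cells (12.6% to 15.1%) in normoxia and 53.4% (51.6% to 55.1%) in hypoxia at day 8, and in 11.6% and 42.4% at day 10. Without thinning the shares were 38.9%, 79.3%, 32.7% and 63.6%. Ndrg2 was seen in 14.4% and 52.6% of thinned cells at day 8, and in 32.3% and 31.3% at day 10, against 39.2%, 84.3%, 69.3% and 57.1% unthinned. The unthinned shares of Ndrg2 at day 10 differ while the thinned ones nearly meet, and the hypoxic library there has the shallower cells. No class of cells that should lack these genes was defined. The lowest shares in normoxia at day 8 were those of macrophage-like cells for Ndrg2, 3.92% (median 37706 UMIs per cell, against 23171.5 in mesenchymal-like cells), and of endoderm-like cells for Ndrg1, 1.79% (median 23846 UMIs).

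Cells differed more in Ndrg1 than in Ndrg2. In hypoxia at day 8, 16.0% of thinned cells had at least 3 UMIs of Ndrg1 and 8.59% had at least 3 of Ndrg2. The variance over the mean of the UMIs per cell, which is 1 for pure counting noise, was 2.19 for Ndrg1 and 1.34 for Ndrg2 there. In the hypoxic library of day 10 it was 1.90 and 1.12, and in the normoxic libraries 1.23 and 1.41 for Ndrg1 and 1.16 and 1.18 for Ndrg2. Ndrg3 was seen in 6.48% to 7.34% of thinned cells and Ndrg4 in 1.33% to 2.05%.

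**Figure D3:**
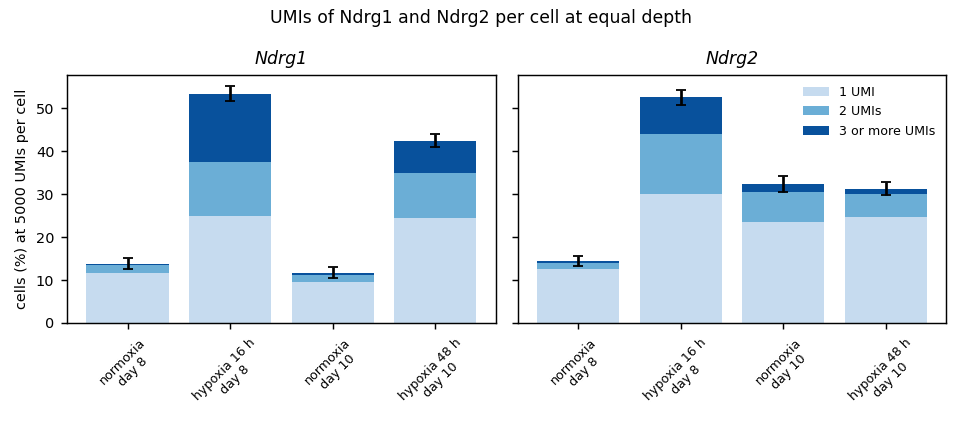
Share of cells with 1, 2 or at least 3 UMIs of Ndrg1 and Ndrg2 after each cell was thinned to 5000 UMIs, by library; error bars are exact binomial intervals of the whole share. Ndrg1 was seen in 53.4% and 42.4% of hypoxic cells, and Ndrg2 in 52.6% and 31.3%.

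Cells were clustered without the NDRG, HIF target, glycolysis and cell cycle genes and named from marker genes. Mesenchymal-like cells of the 2 day 8 libraries lay partly in the same clusters. Those of the 2 day 10 libraries lay largely in different ones, as did those of the 2 ages in normoxia. Those of normoxia at day 8 were mostly in clusters 1, 3, 4 and 13 and those of hypoxia at day 8 in clusters 6, 4, 3, 1 and 9. Those of normoxia at day 10 were mostly in clusters 5, 10 and 12 and those of hypoxia at day 10 in clusters 0, 2, 7 and 8. Values within this class therefore set partly different cells side by side in hypoxia at day 8, and largely different ones in hypoxia at day 10 and with age. Within it Ndrg1 was at 34.4 and 241 CPM at day 8 and at 32.3 and 160 CPM at day 10 (normoxia and hypoxia). Ndrg2 was at 27.4 and 166 CPM at day 8 and at 83.8 and 78.5 CPM at day 10.

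Ndrg1 was higher in hypoxia in each class that had at least 30 cells in both libraries. At day 8 the log2 ratio was 2.78 in mesenchymal-like, 2.46 in endoderm-like (7.25 to 44.5 CPM), 2.92 in erythroid-like (12.6 to 102 CPM), 2.62 in megakaryocyte-like (14.8 to 95.8 CPM) and 3.51 in macrophage-like cells (3.24 to 47.4 CPM). At day 10 it was 2.27 in mesenchymal-like, 2.78 in endoderm-like and 2.68 in macrophage-like cells. The lower ends of the intervals of the plain log2 ratios in these 8 comparisons lay at or above 1.68. The endoderm-like class of 65 and 65 cells at day 10 was mixed: at a resolution of 2 its endoderm-like cluster kept 47 cells of normoxia and 18 of hypoxia, and the pluripotent-like cluster had 19 and 48. In that narrower endoderm-like cluster, an alternative chosen after seeing the data, Ndrg1 was at 5.94 CPM (7 UMIs) and 57.0 CPM (22 UMIs), a log2 ratio of 3.06 (1.98 to 4.73). The level differed between classes within a library. Among the classes with at least 30 cells in a library, the highest value was that of mesenchymal-like cells in all 4. In hypoxia at day 10, however, the interval of the 44 megakaryocyte-like cells (121 CPM, 81.4 to 174) overlapped theirs.

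Ndrg2 was also higher in hypoxia in every class compared at day 8, with log2 ratios of 2.55 in mesenchymal-like, 2.17 in endoderm-like, 1.19 in erythroid-like, 2.51 in megakaryocyte-like and 3.89 in macrophage-like cells. At day 10 the classes parted. Macrophage-like cells of normoxia held 42.3 CPM (36.2 to 49.2) and those of hypoxia 150 CPM (132 to 171), a log2 ratio of 1.80 over 183 and 119 cells. In mesenchymal-like cells the log2 ratio was -0.093, and in endoderm-like cells 0.48 with an interval of -0.08 to 1.06. In the narrower endoderm-like cluster of 47 and 18 cells it was 0.82, with an interval that starts at 0.15 and leaves out 0, so the value for this class depends on how the clusters were drawn. With age in normoxia Ndrg2 was higher in all 3 classes compared, by 1.58 in mesenchymal-like, 1.82 in endoderm-like and 2.89 in macrophage-like cells on the log2 scale.

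Mesenchymal marker RNA was also counted in the other classes, at levels that differed between libraries. Its source, whether free RNA, doublets or the cells' own expression, was not tested. The summed level of 13 mesenchymal markers in macrophage-like cells was 1.54% of that in mesenchymal-like cells in normoxia and 7.98% in hypoxia at day 8, and 6.74% and 10.5% at day 10. From 1 to 3 of the 13 markers were at 0 in macrophage-like cells. The level of Ndrg1 in macrophage-like cells was a larger share of that in mesenchymal-like cells, 9.42% and 19.7% at day 8 and 19.1% and 28.1% at day 10. For Ndrg2 it was 17.7% and 51.6% at day 8 and 50.5% and 192% at day 10, so that in hypoxia at day 10 macrophage-like cells held more Ndrg2 than mesenchymal-like cells. In erythroid-like cells at day 8 the markers stood at 6.30% and 20.01%, and Ndrg1 at 36.6% and 42.3%. In endoderm-like cells the markers stood at 7.28% and 12.6% at day 8 and at 2.30% and 52.1% at day 10, and Ndrg1 at 21.1%, 18.5%, 22.9% and 35.5%. In that last library single markers ranged from 5.38% to 267% with a median of 14.1%, and in its macrophage-like cells a single marker reached 235%. In megakaryocyte-like cells at day 8 the 13 markers stood at 6.65% and 5.80%, and Ndrg1 at 42.9% and 39.7%. In those of hypoxia at day 10 (median 2993.5 UMIs per cell) they stood at 21.3%, and Ndrg1 at 75.9%. In cardiomyocyte-like cells the markers stood at 48.9% in normoxia at day 8 and 21.1% in hypoxia at day 10. The medians over single markers were 7.80% and 12.2% there, and Ndrg1 was at 17.8% and 22.9%. The part of this RNA in the class ratios was not tested.

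Ndrg3 had its own pattern over classes. Its level was highest in megakaryocyte-like cells, at 91.5 CPM (70.1 to 117) in normoxia and 95.8 CPM (69.4 to 129) in hypoxia at day 8 and 83.8 CPM (51.2 to 129) in hypoxia at day 10. Erythroid-like cells followed with 50.4 CPM in normoxia and 33.6 CPM in hypoxia at day 8, then cardiomyocyte-like cells with 41.6 CPM in normoxia at day 8, whose interval overlaps theirs, and 36.6 CPM in hypoxia at day 10. In contrast, mesenchymal-like cells were at 12.3 to 15.03 CPM in the 4 libraries. The megakaryocyte-like level was thus above the mesenchymal-like one in each of the 3 libraries compared, without overlap of the intervals. At day 8 the hypoxic level was the lower in endoderm-like cells (log2 ratio -0.68, interval -1.28 to -0.22) and in erythroid-like cells (-0.57, -1.03 to -0.15), and was the same within counting error in mesenchymal-like cells (0.00, -0.14 to 0.14).

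Cardiomyocyte-like cells were few, 33 in normoxia at day 8 and 43 in hypoxia at day 10, and were not compared between conditions, since those libraries differ in age and oxygen. Ndrg4 was at 4.90 CPM there at day 8 (4 UMIs, 1.33 to 12.5) and at 48.2 CPM at day 10 (25 UMIs, 31.2 to 71.1). Mesenchymal-like cells of normoxia at day 8 were at 4.06 CPM, within that interval, and those of hypoxia at day 10 at 2.75 CPM (2.38 to 3.16). The cardiomyocyte-like level thus stood above theirs in the second of these libraries and could not be told from theirs in the first. Ndrg2 was at 108 CPM (86.4 to 133) and 245 CPM (204 to 291) in the cardiomyocyte-like cells of the same libraries, above mesenchymal-like cells in both. Ndrg1 was at 6.12 CPM (5 UMIs) and 36.6 CPM (19 UMIs) in them, below mesenchymal-like cells in both. Ndrg4 gave 0 UMIs in macrophage-like cells of either day 8 library, where the intervals reach up to 1.99 CPM in normoxia and 3.80 CPM in hypoxia. It also gave 0 UMIs in the megakaryocyte-like cells of day 8, where the intervals reach up to 5.44 and 8.22 CPM.

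**Figure D4:**
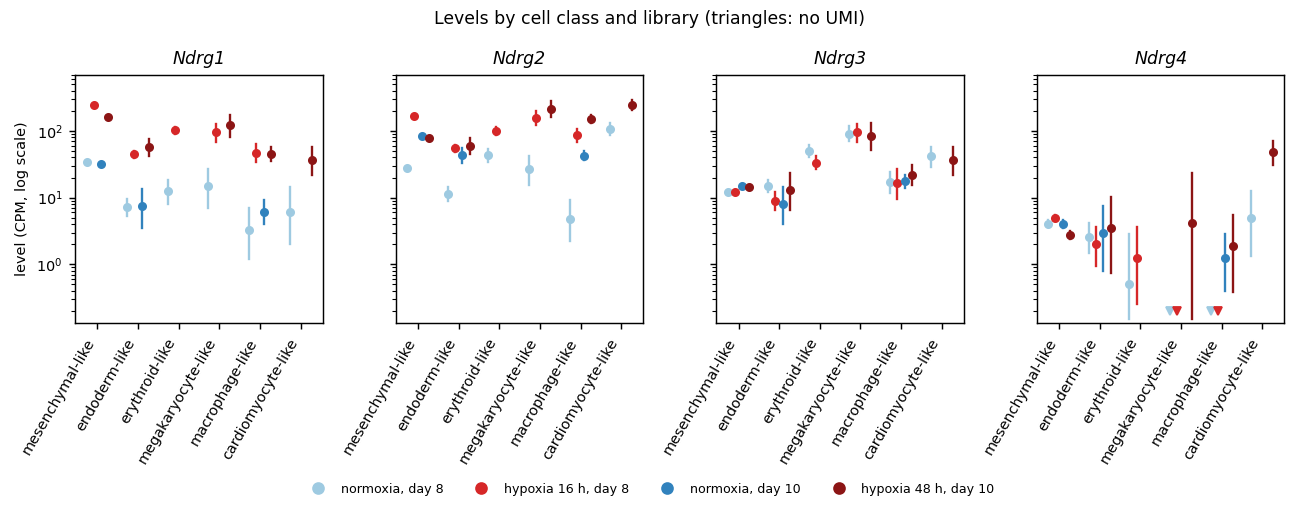
Level (CPM, log axis) of each member by class and library, for classes of at least 30 cells; lines are exact Poisson intervals and triangles mark 0 UMIs. Hypoxic points of Ndrg1 lie above normoxic ones of the same day in each class compared, while Ndrg3 is highest in megakaryocyte-like cells at 83.8 to 95.8 CPM. The cardiomyocyte-like points differ in both age and oxygen and were not compared.

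Clusters that held at least 30 cells of both day 8 libraries allowed a comparison within one kind of mesenchymal-like cell, and 6 mesenchymal-like clusters did. In cluster 1, led by the mesothelial gene Upk3b, Ndrg1 was at 37.5 CPM in normoxia and 281 CPM in hypoxia (926 and 442 cells). In cluster 3 it was at 41.8 and 253 CPM, in cluster 9 at 36.4 and 224 CPM and in cluster 13 at 29.5 and 226 CPM. Cluster 4, whose leading genes include smooth muscle actin Actg2, was at 24.4 and 105 CPM, a log2 ratio of 2.06, the smallest of the 6. Cluster 16 was small (30 and 43 cells) and shallow, with 2 and 26 UMIs of Ndrg1, or 11.6 and 104 CPM. Ndrg2 in cluster 4 was at 6.02 CPM in normoxia and 105 CPM in hypoxia, a log2 ratio of 3.91, against 2.05 to 2.73 in clusters 1, 3, 9 and 13. In cluster 16 it was at 5.78 CPM, from 1 UMI, and 148 CPM, from 37, a log2 ratio of 4.46 whose interval for the plain ratio runs from 2.11 to 10.0. Cluster 4 had a median of 33092 UMIs per cell, the most of the 6.

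Within each library, mesenchymal-like cells with more HIF target RNA also had more Ndrg1. Cells thinned to 5000 UMIs were split at the quartiles of their library for the summed UMIs of 30 HIF target genes, of which none is an NDRG gene. From the lowest to the highest quartile Ndrg1 went from 22.7 to 59.2 CPM in normoxia and from 117 to 431 CPM in hypoxia at day 8. At day 10 it went from 12.3 to 74.8 CPM in normoxia and from 82.4 to 252 CPM in hypoxia. Ndrg2 followed less steeply, from 26.6 to 58.8 CPM and from 119 to 246 CPM at day 8, and from 63.9 to 126 CPM and from 60.1 to 84.3 CPM at day 10. Ndrg3 showed no such order: it was at 14.2 and 14.4 CPM in the lowest and highest quartile of normoxia at day 8, 14.7 and 10.0 of hypoxia at day 8, 12.9 and 16.0 of normoxia at day 10, and 14.1 and 12.7 of hypoxia at day 10. Cells of a library share their culture, so these are descriptions of 4 libraries.

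**Figure D5:**
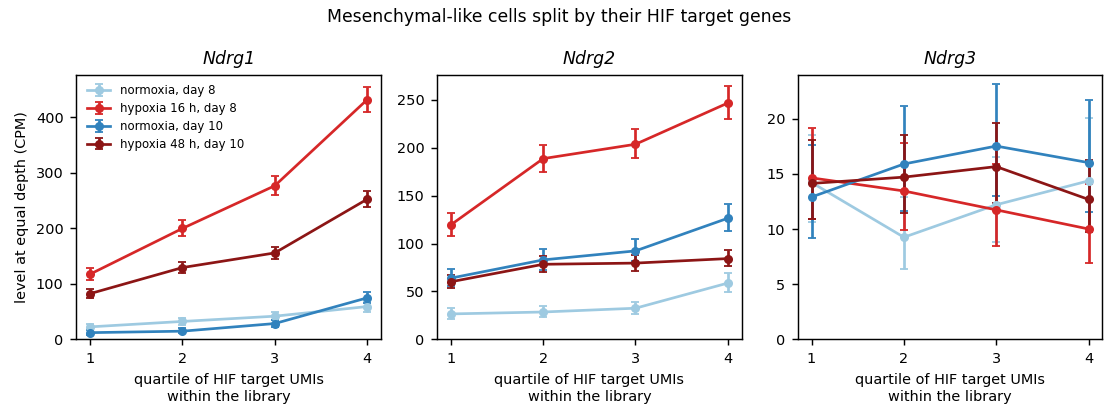
Level at equal depth (CPM of cells thinned to 5000 UMIs) of Ndrg1, Ndrg2 and Ndrg3 in mesenchymal-like cells, by quartile of HIF target UMIs within each library; error bars are exact Poisson intervals. Ndrg1 is higher in each successive quartile in all 4 libraries, from 117 to 431 CPM in hypoxia at day 8.

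Ndrg2 also differed with the cells' depth and with mitosis genes. From the shallowest to the deepest quartile of mesenchymal-like cells, at equal depth after thinning, it was at 53.4 and 16.2 CPM in normoxia and 228 and 133 CPM in hypoxia at day 8. At day 10 it was at 112 and 56.1 CPM in normoxia and at 70.0 and 76.7 CPM in hypoxia. The order thus held in 3 of 4 libraries. Cells with 0 UMIs of 10 mitosis genes had 48.5 CPM of Ndrg2 and cells with at least 5 had 20.9 CPM in normoxia at day 8. The pairs were 198 and 166 CPM in hypoxia at day 8, 102 and 59.0 CPM in normoxia at day 10, and 78.3 and 91.3 CPM in hypoxia at day 10. Ndrg1 showed smaller gaps, at 40.3 and 30.9, 257 and 245, 35.3 and 26.8, and 151 and 163 CPM. Depth and mitosis genes were not separated, and the part of either in the difference was not tested. The mitosis genes themselves had a median log2 ratio of -0.41 in hypoxia at day 8, against -0.11 over all genes. There 0 of 10 passed 2-fold, beside 1.59% of all genes higher and 1.75% lower. At day 10 the median was -1.58, with 6 of 10 at least 2-fold lower, beside -0.46 and 26.9% over all genes. Mki67 was the farthest at -3.17.

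Ndrg2 was seen somewhat more often in cells with Ndrg1 than in cells without it, at day 8. Among thinned mesenchymal-like cells of normoxia at day 8, 19.7% (16.0% to 23.9%) of those with Ndrg1 had Ndrg2, against 13.9% (12.5% to 15.4%) of those without. In hypoxia at day 8 the shares were 59.7% (57.2% to 62.1%) and 51.4% (48.5% to 54.2%). At day 10 they were 38.3% and 33.0% in normoxia and 31.8% and 29.7% in hypoxia, with intervals that overlap.

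The genes most like Ndrg1 over 13 pairs of class and library, by Pearson correlation of log2(CPM + 1) among 6362 genes, were P4ha2 (0.96), Tmem45a (0.95), P4ha1 (0.94), Insig2 (0.92) and Cdkn1b (0.90). P4ha1 and P4ha2 encode collagen prolyl hydroxylases, which use oxygen and are textbook HIF targets. Those most like Ndrg2 were Cdkn1b (0.84), which encodes a cell cycle inhibitor, Ube2h (0.82), Arl13b (0.82), Rhoq (0.81) and Rsrp1 (0.80). Those most like Ndrg3 were Cpeb4 (0.93), Blvrb (0.90), Hipk1 (0.88), Eif2ak1 (0.87) and Gpx1 (0.86), of which Eif2ak1 encodes the haem-regulated kinase and Blvrb a biliverdin reductase. Cald1 (0.95) led for Ndrg4, whose points rest on few UMIs. Ndrg1 and Ndrg2 had a correlation of 0.78 with each other, and Ndrg1 and Ndrg3 one of -0.05. Only pairs with at least 50 cells were used, all of endoderm-like, erythroid-like, macrophage-like or mesenchymal-like cells. Megakaryocyte-like and cardiomyocyte-like cells, among the highest in Ndrg3, thus did not enter these correlations. The points share libraries and depth, so the correlations are descriptions.

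The HIF target list, 30 genes of which 29 passed the mean of 5 CPM, lay nearly as a whole above 2-fold in hypoxia at day 8. There 28 of 29 passed 2-fold upward and 0 downward, beside 1.59% and 1.75% of all genes. The median log2 ratio was 2.04, against -0.11 over all genes. At day 10, 20 of 29 passed upward and 0 downward, beside 4.39% and 26.9% of all genes. The median was 1.39, against -0.46 over all genes. The oxygen sensor genes Egln3 (7.22 to 62.2 CPM at day 8, 2.94) and Egln1 (69.9 to 386 CPM, 2.45) moved on the scale of Ndrg1, and at day 10 they were at 2.39 and 1.65. Vegfa, the vessel growth factor, was at 1.82 and 1.95, and the glucose transporter Slc2a1 at 1.21 and 2.29. With age in normoxia, where Ndrg2 was at 1.55, 2 of 29 were at least 2-fold higher, Pfkfb3 (1.20) and Bhlhe40 (1.05), beside 3.32% of all genes. At least 2-fold lower was 1 of 29, Slc2a3 (-1.20), near the 2.49% of all genes. The median was 0.13, against -0.08 over all genes.

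Among the 9 HIF subunits and oxygen sensors that passed, Egln1 and Egln3 were the 2 at least 2-fold higher in hypoxia at day 8 and again at day 10, when 1 was lower, Hif3a (-1.28). The list's medians were 0.20 and 0.40, against -0.11 and -0.46 over all genes. The shares over all genes at day 8 and day 10 were 1.59% and 4.39% higher and 1.75% and 26.9% lower. The subunit gene Hif1a was at 182 and 145 CPM at day 8 (log2 ratio -0.33) and at 203 and 269 CPM at day 10 (0.40). Epas1, which encodes HIF-2 alpha, was at 13.8 and 7.78 CPM at day 8 and at 6.01 and 3.58 CPM at day 10. Vhl, whose protein carries hydroxylated HIF to destruction, was at 0.61 and 0.40.

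In the MYC network, whose MYC proteins repress Ndrg1 and Ndrg2, 1 of 10 passing genes, Mxi1, was at least 2-fold higher in hypoxia at day 8 and 3 at day 10, Mxi1, Max (1.08) and Myc, and 0 were lower in either. The medians were 0.10 and 0.12, against -0.11 and -0.46 over all genes. The shares over all genes at day 8 and day 10 were 1.59% and 4.39% higher and 1.75% and 26.9% lower. Myc was at 9.18 and 6.16 CPM at day 8 (log2 ratio -0.51) and at 6.69 and 14.6 CPM at day 10 (1.02). Mycn was at 11.8 and 16.8 CPM at day 8 (0.47) and at 13.4 and 7.16 CPM at day 10 (-0.81). The 2 genes thus lay on opposite sides of 0 at each age. Mxi1, a MYC antagonist and HIF target, was at 2.03 and 1.48.

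Of the 6 passing genes for SGK, GSK3 and AKT kinases, 0 were at least 2-fold higher in hypoxia and 1 was lower, Sgk3 at day 8 (8.31 to 3.06 CPM, log2 ratio -1.20). The medians were -0.17 and -0.65, against -0.11 and -0.46 over all genes. The shares over all genes at day 8 and day 10 were 1.59% and 4.39% higher and 1.75% and 26.9% lower. Sgk1 was at 8.00 and 5.05 CPM at day 8 (-0.57) and at 7.47 and 10.7 CPM at day 10 (0.47), and Gsk3b was at -0.13 and -0.55.

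Of the 11 genes of lactate and ERK signalling, with which NDRG3 protein acts, 2 were at least 2-fold higher in hypoxia at both ages, the lactate dehydrogenase gene Ldha (543 to 1837 CPM at day 8, log2 ratio 1.76; 1.32 at day 10) and the lactate exporter gene Slc16a3 (2.35 and 1.27). At day 10, 3 of 11 were at least 2-fold lower, a share near the 26.9% of all genes, Ldhb (73.0 to 14.6 CPM, -2.25), Map2k2 (-1.27) and the lactate transporter gene Slc16a1 (-1.21). Of all genes 1.59% were at least 2-fold higher in hypoxia at day 8 and 4.39% at day 10. The medians were -0.04 and -0.34, against -0.11 and -0.46 over all genes. Ndrg3 RNA, beside these, was at -0.10 and -0.033.

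Iron loss is a known inducer of Ndrg1, and of 9 passing iron handling genes 0 were at least 2-fold higher in hypoxia at either age and 1 was lower at day 10, the iron exporter gene Slc40a1 (-1.96). The medians were -0.03 and -0.46, against -0.11 and -0.46 over all genes. For the lists of this paragraph, the shares over all genes at day 8 and day 10 were 1.59% and 4.39% higher and 1.75% and 26.9% lower. The transferrin receptor gene Tfrc was at 0.44 at day 8 and -0.98 at day 10. NDRG1 protein is also known to take part in recycling of E-cadherin. Of 7 cadherin and recycling genes 0 were at least 2-fold higher in hypoxia at either age, and 1 was lower at day 10, Cdh2 (164 to 47.8 CPM, -1.76), with medians of -0.08 and -0.50. Of 6 stress and p53 regulators, some of which can also induce Ndrg1, 0 were at least 2-fold higher or lower at day 8. At day 10, 2 were higher, Atf4 (1.88) and Ddit3 (1.86), and 1 was lower, Egr1 (-1.59). The medians were 0.11 and 0.38.

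With age in normoxia, the comparison in which Ndrg2 was 3.0-fold higher, the MYC network had 0 of 10 genes at least 2-fold higher or lower, and Myc and Mycn were at -0.41 and 0.16. The same held for the kinases (0 of 6), the lactate and ERK genes (0 of 11) and the iron genes (0 of 9). Of the stress regulators 2 of 6 were higher, Egr1 (1.29) and Atf3 (1.13), and of the cadherin genes 1 of 7 was lower, Cdh1 (22.2 to 5.71 CPM, -1.79). Of the mitosis genes 0 of 10 passed 2-fold, with a median of -0.38. Over all genes 3.32% were at least 2-fold higher with age and 2.49% lower, and the median was -0.08.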

How the data were processed

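Cells were dissociated with Accumax, strained and made into 10x Genomics 3' v3.1 libraries, per the labels' protocols. The authors deposited whole-number counts of UMIs for every gene in every cell. Cell Ranger 7.1.0 and mm10 appear in the submitters' processing notes, and no source used here says how introns were treated. 32235 of 32285 gene IDs matched GENCODE M21.

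Cells with at least 500 genes and at most 15% mitochondrial UMIs were kept. Scrublet (scanpy 1.11.5) called 5, 1, 9 and 1 doublets, under 0.5% and too few to rely on, so doublets remain. UMIs were summed over cells, scaled to the library total (CPM) and compared as log2 ratios of CPM + 1, with exact Poisson, conditional binomial and Clopper-Pearson intervals. They cover counting error only. With 1 library per group no test was made. Counts of genes used a mean of at least 5 CPM and 2-fold. Clusters (Leiden, resolution 1) with fewer than 30 cells in a library were not compared. The endoderm-like cluster of resolution 2, with 18 cells in hypoxia at day 10, was shown despite this limit. The calculation of the ratio and its interval was checked on simulated counts with Poisson noise, the noise that the interval assumes. Of 200 changed genes per comparison the interval held the true ratio for 96.0%, 95.5% and 97.5%. Such a check cannot show whether the interval covers the spread of real cells or cultures.

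The members, lists and markers were chosen with earlier results of these data known. Named genes were the members, up to 4 genes per list by size of ratio, 12 genes always named (among them Hif1a, Myc and Sgk1) and the 5 genes most like each member. Not all of these are printed. Alternatives used edgeR 4.0.16 (TMM) and DESeq2 1.42.0 (size factors) for scaling only, with Python 3.11.15, numpy 2.4.6, scipy 1.17.1 and pandas 2.3.3.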

Additional observations from a re-analysis of the deposited data

Results flagged for a closer look

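Ndrg4 lay on opposite sides of 0 in hypoxia at the 2 ages, with log2 ratios of 0.26 at day 8 and -0.25 at day 10 in all cells, and of 0.25 and -0.42 in mesenchymal-like cells. The intervals for counting error leave out 0 in each. With 1 library per condition the difference between ages was not tested, and the day 10 sign in all cells turns with TMM scaling.

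Ndrg2 in mesenchymal-like cells was at 2.55 in hypoxia at day 8 and at -0.093 at day 10. At day 10 it was at 1.80 in macrophage-like cells, against that -0.093 in mesenchymal-like cells. Neither difference was tested.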

How the results depend on the processing

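No paired analysis was possible because each condition has 1 library. Of 108 member ratios under alternatives, 76 stayed within the counting error of the value given, 30 moved beyond it and 2 reversed, which here means a change of sign where the interval of the value given leaves out 0. A further 13 changed sign where that interval holds 0, for Ndrg3 in all 3 comparisons, Ndrg2 in hypoxia at day 10 and Ndrg1 and Ndrg4 with age. All 24 ratios within mesenchymal-like cells stayed within counting error at Leiden resolutions 0.5 and 2, as did the 12 within endoderm-like cells at resolution 2, an alternative chosen after seeing the data, although 2 of these changed sign with intervals that hold 0. Ndrg1 in both hypoxia comparisons, and Ndrg2 in hypoxia at day 8 and with age, stayed above 2-fold in all 9 alternatives.

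TMM scaling moved the median gene by 0.22 in hypoxia at day 8, 0.48 at day 10 and 0.12 with age (log2). Under it Ndrg1, Ndrg2 and Ndrg3 were at 3.01, 2.70 and 0.11 in hypoxia at day 8, and at 2.82, 0.51 and 0.44 at day 10, where Ndrg4 reversed to 0.14. With age Ndrg1 was at 0.10 and Ndrg2 at 1.67. DESeq2 size factors gave 3.05, 2.74 and 0.15 for Ndrg1 to Ndrg3 at day 8, 2.88, 0.57 and 0.50 at day 10 with Ndrg4 reversed to 0.19, and 0.13, 1.70 and 0.21 with age. A total without mitochondrial and ribosomal protein genes gave 2.46 for Ndrg1 and 0.14 for Ndrg2 in hypoxia at day 10. A pseudocount of 10 CPM gave 2.49 and 2.16 for Ndrg1 and Ndrg2 in hypoxia at day 8, 2.04 for Ndrg1 at day 10 and 1.3 for Ndrg2 with age. Thinning to 5000 UMIs gave Ndrg2 2.36 and -0.13 in hypoxia at day 8 and day 10 and 1.35 with age, and Ndrg1 -0.17 with age. In mesenchymal-like cells only, Ndrg2 was at 2.55 and -0.093 in hypoxia and Ndrg3 at 0.28 with age.

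Counts of genes at least 2-fold higher and lower were 168 and 186 in hypoxia at day 8, 465 and 2850 at day 10, and 352 and 264 with age. TMM gave 281 and 63 at day 8 and 1310 and 1442 at day 10, which moved the higher share from 47.5% to 81.7% and from 14.0% to 47.6%. A pseudocount of 10 CPM gave 98 and 28, 269 and 1194, and 170 and 96. A mean of at least 20 CPM gave 60 lower at day 8, 1433 lower at day 10, and 173 higher and 113 lower with age. With no filter 357 were lower at day 8, and 612 were higher and 545 lower with age. The alternatives for pseudocount and filter act on genes of few UMIs, while the scalings shift all genes; which scaling fits these cells was not tested.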
